A study of Mus musculus with 4 samples.

Results

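Cell division runs on gene programs that are switched on in turn. The genes described here are 46 members of those programs, fixed as a list of symbols: 33 act in mitosis and 13 in DNA replication or other work of S phase. They were measured in single nuclei of the mouse right ventricle (RV) after right ventricular volume overload (RVVO) and in sham controls. Members were found by an exact match of the gene symbol, which located 45 of the 46 among the 27998 genes of the files. Knl1, a kinetochore scaffold, is listed under its older symbol Casc5, so it was left out of the counts below and its values are given apart. Of the 45, 32 are mitotic and 13 belong to S phase.

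All 4 libraries came from flash-frozen RV nuclei of wild-type C57/BL6J mice at postnatal day 21 (P21), and every mouse had abdominal surgery at P7. In the 2 RVVO libraries the abdominal aorta had been punctured through into the inferior vena cava, which leaves a fistula (ACF) and raises the blood volume that the RV receives. The 2 sham libraries had the same operation without the puncture. The study's methods say that males or females were randomized and that some mice received cyclosporine A, an immunosuppressant, or saline, without saying which mice were sequenced or whether a library held 1 mouse or several. The p-values below therefore measure the spread between libraries. The female transcript Xist was at 1475 and 1486 CPM (counts per 1000000 UMIs of a library or of a lineage's sum) in sham 1 and sham 2 and at 0.823 and 0.623 CPM in RVVO 1 and RVVO 2, while the Y-linked Uty was at 0.101, 0.0259, 322 and 317 CPM in the same order. Sex and surgery therefore cannot be told apart in any RVVO and sham comparison below.

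A library held 8700 to 15568 barcodes and 51010039 to 64739206 UMIs (unique molecular identifiers, each counting 1 captured RNA molecule). The median barcode held 2311 UMIs in sham 1, 2262 in sham 2, 4705 in RVVO 1 and 3378 in RVVO 2, so depth split by group. Before filtering, the median mitochondrial share of a barcode's UMIs was 1.47% in sham 1 and 1.38% in sham 2. It was 0.654% in RVVO 1 and 0.535% in RVVO 2, so this measure of quality split by group as sex did. After filtering, 43209 nuclei remained. Clusters were named from marker genes, which gave 13241 cardiomyocyte (CM), 1539 macrophage, 10717 endothelial (EC), 5624 fibroblast and 2605 mural (pericyte and smooth muscle) nuclei. Another 7165 nuclei were left unnamed, 23.1% and 16.9% of sham 1 and sham 2 and 15.3% and 10.5% of RVVO 1 and RVVO 2. They include clusters that scored highest for macrophage markers but also carried markers of another lineage, so the macrophage nuclei described are a subset. The names were rebuilt here, so a count per lineage may differ from the study's. The 10 CM markers, which include Ttn and Myh6, summed to 72489 to 83354 CPM in CM nuclei and still to 12080 to 25966 CPM in the other 4 lineages, so RNA from CMs was present in every lineage. Macrophage markers summed to 11281 to 16594 CPM in macrophage nuclei and to 209 to 230 CPM in CM nuclei. Pairs of libraries shared 28 to 70 barcodes, at most 0.540% of the smaller library.

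As background, S phase begins when the MCM2 to MCM7 helicase is switched on at licensed origins. DNA polymerases with the sliding clamp PCNA then copy the genome from nucleotides made by ribonucleotide reductase. Mitosis then needs topoisomerase and condensins to shape chromosomes, kinetochores and the Aurora, Polo and CDK1 kinases to segregate them, and a contractile ring to divide the cell. Mouse CMs largely leave the cycle within days of birth, and later rounds of replication can end without division and leave a polyploid or binucleate cell. Resident macrophages, ECs and stromal cells of the young heart still divide. Transcription of the mitotic genes is known to depend on the DREAM and MMB complexes, which bind the CHR element, and on NF-Y, which binds the CCAAT box. S-phase genes rely more on E2F sites.

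The promoters of members with known start sites carried these letters. RefSeq promoter windows of 300 bases (250 before and 50 after the start, build GRCm38.p6) matched 40 of the 46 members, 29 mitotic ones including Knl1 and 11 of S phase. The CHR element was searched, on either strand, as the letters TTTGAA, with the forms TTTAAA and also TTCGAA and, last, the form CTTGAA. One of these occurred in 26 of 29 mitotic windows (89.7%), in 5 of 11 S-phase windows (45.5%) and in 37.6% of the 27025 genes with a window. CCAAT, on either strand, occurred in 23 of 29 (79.3%), 10 of 11 (90.9%) and 37.9%. The E2F letters TTTGGCGC, TTTCGCGC, TTTGCCGC or TTTCCCGC, on either strand, occurred in 2 of 29 mitotic windows (6.90%), namely those of Ncapg and Cdk1, and in 6 of 11 S-phase windows (54.5%), against 2.32% of all. CHR and CCAAT letters stood together in 22 of 29 mitotic windows (75.9%), 4 of 11 S-phase windows (36.4%) and 14.8% of all. A match describes letters in a window and is not evidence that a factor binds there.

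The windows of 4 members are printed from 5′ to 3′ in the direction of the gene, with matches of the 3 motifs in capitals and overlapping matches run together. Mki67, a coat protein of mitotic chromosomes, and Top2a, which untangles DNA, show the mitotic pattern and are the markers used below to pick nuclei. Mcm2 and Mcm6 are subunits of the same helicase, and Mcm6 was picked after the search because its window holds the E2F letters that the window of Mcm2 lacks.
Mki67 chr7:135716330-135716629: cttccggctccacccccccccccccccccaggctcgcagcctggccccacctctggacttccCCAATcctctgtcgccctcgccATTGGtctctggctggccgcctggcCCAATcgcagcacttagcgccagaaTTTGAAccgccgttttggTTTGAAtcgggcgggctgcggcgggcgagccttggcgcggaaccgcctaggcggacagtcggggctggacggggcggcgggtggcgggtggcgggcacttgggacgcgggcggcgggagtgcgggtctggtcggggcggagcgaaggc
Top2a chr11:99024140-99024439: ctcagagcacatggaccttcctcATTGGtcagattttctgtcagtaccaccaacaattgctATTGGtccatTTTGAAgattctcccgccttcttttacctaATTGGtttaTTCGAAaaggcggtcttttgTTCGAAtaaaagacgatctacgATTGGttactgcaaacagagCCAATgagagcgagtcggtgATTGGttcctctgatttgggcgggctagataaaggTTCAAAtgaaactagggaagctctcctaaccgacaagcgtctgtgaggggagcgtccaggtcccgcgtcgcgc
Mcm2 chr6:88898731-88899030: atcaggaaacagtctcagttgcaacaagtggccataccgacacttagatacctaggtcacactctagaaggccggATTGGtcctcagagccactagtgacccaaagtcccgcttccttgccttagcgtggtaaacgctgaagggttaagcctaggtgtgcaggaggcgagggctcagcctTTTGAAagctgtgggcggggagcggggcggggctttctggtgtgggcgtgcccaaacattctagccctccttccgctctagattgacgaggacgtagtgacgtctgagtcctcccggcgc
Mcm6 chr1:128359656-128359955: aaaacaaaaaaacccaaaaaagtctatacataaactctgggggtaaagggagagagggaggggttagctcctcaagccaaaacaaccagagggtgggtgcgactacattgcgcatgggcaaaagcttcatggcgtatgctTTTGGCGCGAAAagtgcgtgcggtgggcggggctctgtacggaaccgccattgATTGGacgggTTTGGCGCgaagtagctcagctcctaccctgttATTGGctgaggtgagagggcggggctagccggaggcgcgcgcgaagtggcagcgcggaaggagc
All 4 lie on the minus strand. The capitals count 2 CHR and 3 CCAAT matches for Mki67, 4 and 6 for Top2a, 1 and 1 for Mcm2, and 0 and 2 for Mcm6 with 3 E2F matches.

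The share of nuclei holding transcripts of a list was compared between lineages after each nucleus was thinned at random to 1000 UMIs, since a deeper nucleus shows more transcripts of every gene. A nucleus was called positive for a list with at least 2 UMIs of that list, whether of a single member or of different ones. CMs had the lowest mitotic share in every library: 0.258% in sham 1, 0.465% in sham 2, 0.472% in RVVO 1 and 0.395% in RVVO 2. Those shares rest on 7 of 2708, 14 of 3010, 13 of 2752 and 18 of 4559 nuclei, and the 95% exact binomial interval of sham 1 ran from 0.104% to 0.532% (counting error only, as for all such intervals). Macrophages had the highest, with 11.5% (36 of 312), 21.2% (77 of 363), 11.4% (24 of 210) and 11.7% (56 of 477) in the same order. Sham 2 stood far above the other 3 libraries, which lay close together. ECs were positive in 1.97%, 2.44%, 2.74% and 3.16% of nuclei. Fibroblasts were positive in 1.85%, 1.89%, 1.51% and 1.37%. Mural nuclei were positive in 1.35%, 1.54%, 1.58% and 1.90%. These 3 lineages lay between CMs and macrophages in each library.

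Averaged over libraries, the mitotic share of CMs was 0.398% ± 0.0992 (SD, n = 4). Macrophages averaged 14.0% ± 4.82, which was 35.2 times the CM mean. ECs averaged 2.58% ± 0.504 (6.48 times), fibroblasts 1.65% ± 0.255 (4.16 times) and mural nuclei 1.59% ± 0.225 (4.002 times). The difference from CMs was positive in 4 of 4 libraries for all 4 lineages, from 1.19 ± 0.205 percentage points in mural nuclei to 13.6 ± 4.78 in macrophages. The exact two-sided sign-flip permutation test over 4 libraries gave p = 0.125 for each, the smallest p that 4 pairs can give. ECs exceeded fibroblasts and mural nuclei in 4 of 4 libraries as well (by 0.923 and 0.984 percentage points, exact permutation p = 0.125 each), while fibroblasts and mural nuclei traded places, with fibroblasts higher in 2 of 4 (0.0611 percentage points, exact permutation p = 1). The 10 pairs of lineages were tested for each list, and no p can pass 0.05 with 4 libraries. The ratios to the CM mean depend on the cut. With at least 1 mitotic UMI in place of 2, CMs had 5.72% to 6.95% and macrophages 26.6% to 36.9%. ECs then had 13.8% to 18.9%.

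The S-phase list ordered the lineages differently in the middle. CMs were again lowest, at 0.923%, 0.698%, 0.799% and 0.899% in sham 1, sham 2, RVVO 1 and RVVO 2 (mean 0.830% ± 0.103). Macrophages were positive in 12.5%, 23.7%, 15.7% and 9.85% (mean 15.4%, 18.6 times the CM mean). Sham 2 was again the highest library and RVVO 2 the lowest. Fibroblasts followed with 4.21%, 5.15%, 3.88% and 3.92% (5.17 times the CM mean), ahead of ECs with 2.84%, 4.08%, 2.90% and 3.64% (4.06 times). Mural nuclei had 2.56%, 3.19%, 3.15% and 2.37% (3.39 times). Fibroblasts lay above ECs in 4 of 4 libraries for the S-phase list (0.922 percentage points, exact permutation p = 0.125), the reverse of their mitotic order, although this turned when Pola1 and Ezh2 were left out. Each lineage exceeded CMs in 4 of 4 libraries (exact permutation p = 0.125 each).

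**Figure D1:**
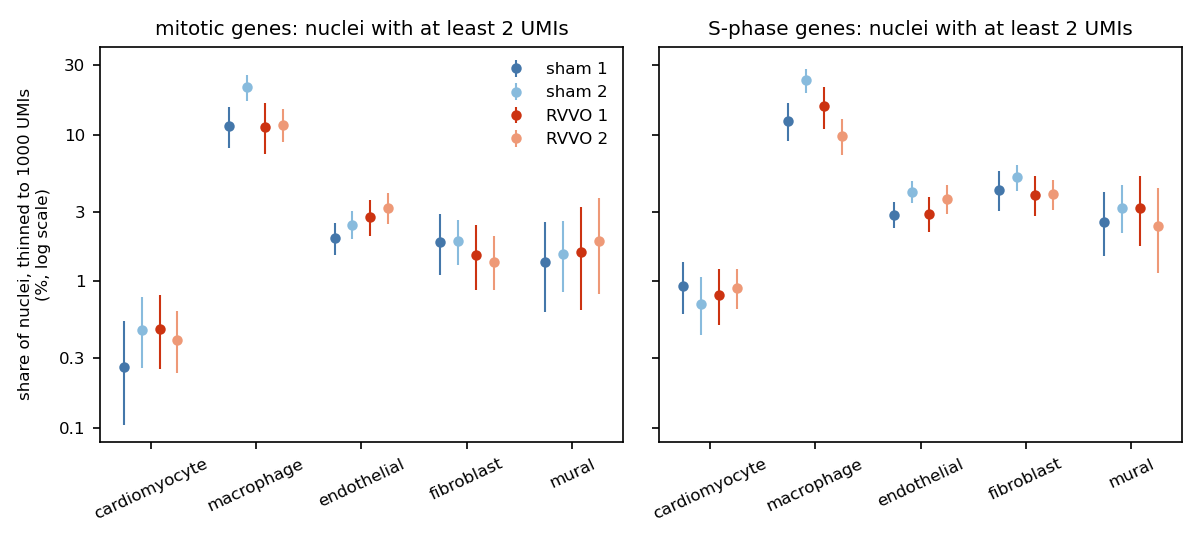
Percent of nuclei with at least 2 UMIs of the mitotic list (left) or the S-phase list (right) on a log axis. Nuclei of the 5 lineages were thinned to 1000 UMIs. Each point is 1 library, and each bar is its 95% exact binomial interval, which covers counting error only. Macrophages average 14.0% and CMs 0.398% on the mitotic list, with no library of one among those of the other.

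Without thinning, 5.28% to 12.5% of CM nuclei and 15.8% to 29.6% of macrophage nuclei held at least 2 mitotic UMIs, and the mural share lay below that of CMs (a difference of -0.537 percentage points). On the S-phase list ECs and mural nuclei also lay below CMs without thinning (-0.975 and -5.42 percentage points). CM nuclei were the deepest, with a median of 4533 to 8032 UMIs against 1668 to 3083 in macrophages, and RVVO 1 was the deepest library in each of the 5 lineages. Nuclei under 1000 UMIs could not be thinned and were left out, among them 48, 123, 6 and 0 macrophage nuclei of the 4 libraries.

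A few members supplied many of the UMIs. Smc4, a condensin subunit that also works in interphase, gave 27.9% of mitotic UMIs in CMs, 37.4% in ECs, 50.8% in fibroblasts and 48.6% in mural nuclei, but 12.3% in macrophages. Cenpf, a kinetochore and nuclear matrix protein, gave a further 16.4% in CMs. Without Smc4, the mitotic share of CMs was 0.185%, 0.299%, 0.363% and 0.307% and that of macrophages 10.6%, 19.6%, 10.0% and 10.1%. ECs then had 0.968%, 0.944%, 1.56% and 1.42% in sham 1, sham 2, RVVO 1 and RVVO 2. Fibroblasts fell to between 0.171% and 0.686% and mural nuclei to between 0.450% and 0.948%. In RVVO 2 the fibroblast share of 0.171% lay below that of CMs. On the S-phase list, Pola1, the catalytic subunit of primase-polymerase alpha, and Ezh2, a histone methyltransferase that cells also use outside S phase, gave 36.9% and 32.2% of UMIs in CMs. Without both, ECs had S-phase shares of 1.27%, 1.77%, 1.23% and 1.46% and fibroblasts 1.13%, 1.43%, 0.662% and 0.967%, so that ECs lay above fibroblasts in 4 of 4 libraries, the opposite of the order with all members.

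Positive nuclei of macrophages carried both programs. Of 193 mitotic-positive macrophage nuclei, 108 were also S-phase-positive (56.0%), against 8.30% of the other macrophage nuclei, and the share was 51.8% to 66.7% in the 4 libraries. In ECs, 34 of 261 (13.03%) were positive for both, against 3.15% of the others. In CMs, 5 of 52 (9.62%) were, against 0.801%, and 4 of those 5 nuclei came from RVVO 2. Fibroblasts (6 of 91) and mural nuclei (3 of 38) had few. The thinned nucleus with the most mitotic UMIs held 22 in macrophages, 26 in ECs and 21 in fibroblasts, but 9 in CMs and 4 in mural nuclei. These are counts of nuclei that share libraries, given with no test.

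Nuclei with a UMI of Mki67 or Top2a showed how far the other members came along. Such nuclei made up 8.37% of macrophages (114), 0.895% of ECs (94), 0.523% of fibroblasts (29), 0.574% of mural nuclei (14) and 0.345% of CMs (45). In macrophages, 29 of the other 30 mitotic members and 13 of 13 S-phase members were more frequent in those nuclei than in the remaining ones, with a median difference of 11.998 percentage points over the mitotic members. In ECs the counts were 29 of 30 and 10 of 13 (median 6.13 points). In fibroblasts they were 16 of 30 and 8 of 13, and in mural nuclei 3 of 30 and 3 of 13. In CMs they were 8 of 30 and 5 of 13, with a median difference of -0.0385 points over the mitotic members. With 45 and 14 such nuclei in CMs and mural nuclei, a member carried by few nuclei was often missed altogether.

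Depth and other lineages' markers were measured beside the CM result. Before thinning, mitotic-positive CM nuclei had fewer UMIs than other CM nuclei in 3 of 4 libraries (ratio of medians 0.384 to 1.09, exact permutation p = 0.25), while mitotic-positive macrophage nuclei had more in 4 of 4 (1.15 to 1.36, exact permutation p = 0.125). Macrophage markers summed to 236 CPM in the 52 positive CM nuclei and 221 CPM in the others, and 17.3% and 17.6% of nuclei held at least 3 macrophage marker UMIs. CM markers summed to 71024 and 78821 CPM, and the median doublet score was 0.0347 and 0.0440. In CM nuclei the macrophage marker list stood at 1.68% of its macrophage level, and Mki67 stood at 2.22%, Top2a at 1.502% and Aurkb at 1.08% of theirs, taken over the means of 4 libraries. Ect2 stood at 5.98%, Pcna at 16.2% and Mcm2 at 16.8%. The part of free RNA in the CM shares was not tested.

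The lineages are mixtures of clusters, and the mitotic share differed among those of ECs, as a description of clusters drawn from the same nuclei. A cluster of 326 EC nuclei (c22) led by Reln, Prox1 and Mmrn1, genes of lymphatic endothelium, had a mitotic share of 9.51%, from 4.76% in sham 1 to 13.2% in RVVO 2. A cluster of 1361 (c17) led by Tmem108, Nrg1 and Vwf had 6.39%, from 5.67% to 7.69% in the 4 libraries. The largest EC cluster (c14), 4629 nuclei led by Ccdc85a, Mgll and Mcf2l, had 1.30%. Mki67 was at 53.4 CPM in the Reln cluster, 8.13 in the Vwf cluster and 3.86 in the largest. Smc4 was at 164, 187 and 72.8 CPM. Clusters of CMs lay between 0.265% and 0.631%, apart from 1.54% (10 of 648) in the shallowest, of median 1372 UMIs, and 1 of 68 nuclei in the smallest.

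**Figure D2:**
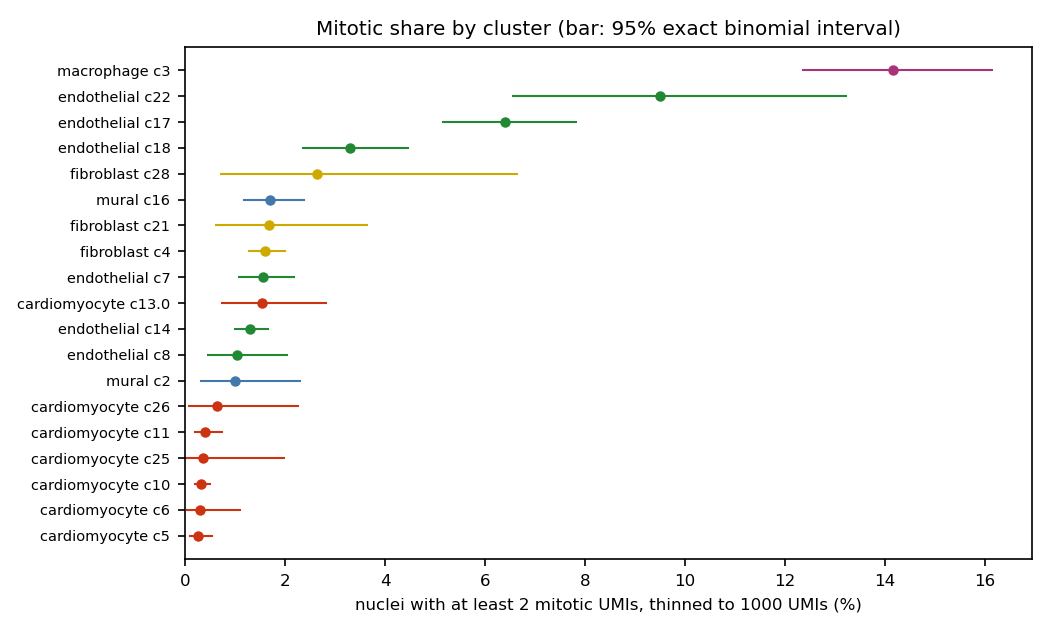
Mitotic share of each cluster of the 5 lineages with at least 100 nuclei, in percent of nuclei thinned to 1000 UMIs; points are shares over all 4 libraries and bars are 95% exact binomial intervals, which cover counting error only. The macrophage cluster c3 (14.2%) and the EC cluster c22 led by Reln (9.51%) lie highest, and most CM clusters lie below 1%.

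Gene by gene, UMIs were summed per library and lineage and each lineage was tested against CMs within libraries (edgeR quasi-likelihood, Benjamini-Hochberg over 14393 genes). The 4 comparisons share the CM sums. A low-count filter left 41 of the 45 members, and Aurka, Ccnb1, Plk1 and Ube2c were too low to be tested. The filter keeps a gene that is high enough in any single lineage. Aurkb, for example, passed only through macrophages, so for such members a rise there was favoured in advance. In macrophages, 40 members rose and 0 fell, where 32.5% of all tested genes were called higher and 34.8% lower, and the median log2 fold change of the 41 was 3.38 against -0.03 over all genes. The 28 mitotic members tested had a median of 4.12 and the 13 S-phase members 2.37. In ECs, 26 rose and 3 fell (39.6% and 38.6% of all genes; median 1.29 against 0.04). In fibroblasts, 16 rose and 1 fell (37.3% and 36.1%; 0.74 against 0.03). In mural nuclei, 13 rose and 4 fell (34.7% and 34.7%; 0.43 against 0.03). With no filter, which tests all 45, the counts were 43 and 0, 27 and 3, 14 and 3, and 12 and 6. Scaled by library size only, they were 41 and 0, 35 and 1, 29 and 0, and 17 and 0 of 41, but the median over all genes then moved to between 0.56 and 0.66. With sums over thinned nuclei, which left 24 members to test, the counts were 23 and 0, 15 and 0, 8 and 1, and 6 and 1. Without sham 1 the fibroblast count of falls was 3 (Cenpf with Ccnb2 and Kif11), and without RVVO 1 the mural count was 1 (Cenpf).

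**Figure D3:**
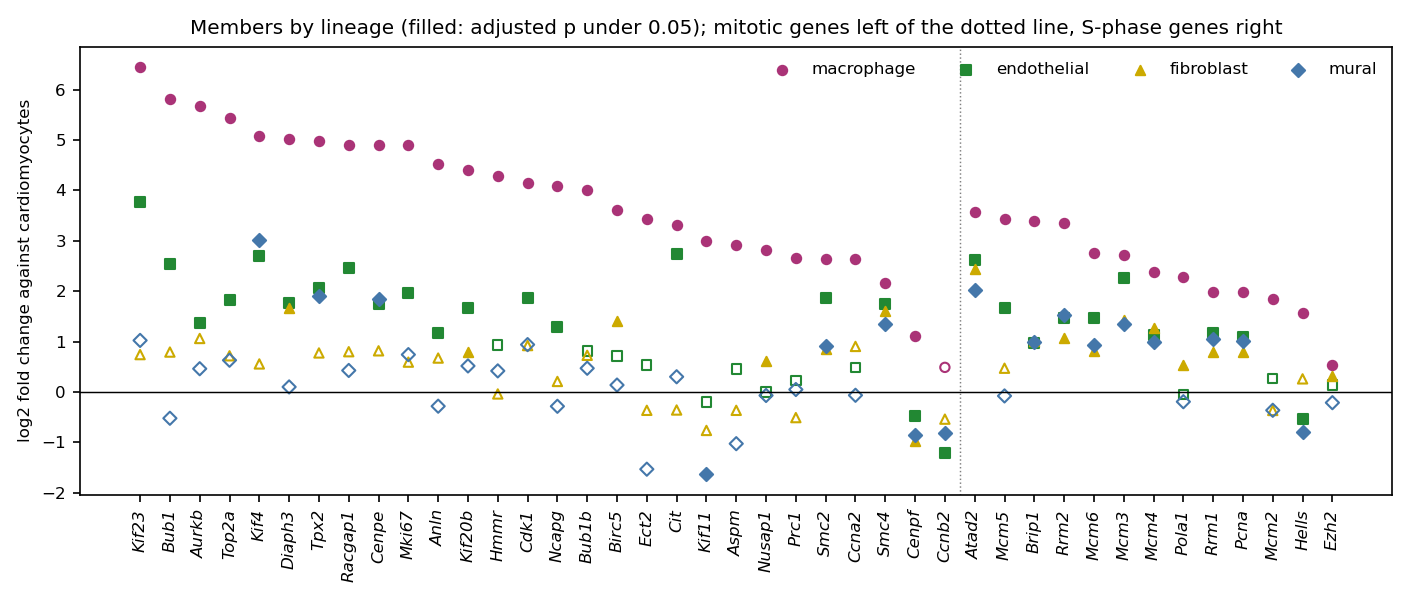
Log2 fold change of each tested member in macrophage, EC, fibroblast and mural nuclei against CMs (edgeR), with 1 gene per place on the x axis, mitotic members left of the dotted line and S-phase members right of it; markers are filled where the adjusted p was under 0.05. Mitotic members in macrophages have a median of 4.12, and the S-phase members 2.37.

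Among mitotic members in macrophages, the median log2 fold change was 4.46 for the 8 of cytokinesis and 4.45 for the 4 of the kinetochore. It was 4.09 for the 5 of chromosomes and 3.64 for the 6 of the spindle. The 5 kinases, cyclins and partners tested, Birc5 among them, had 3.62. Mki67, of the chromosome members, was at 1.14, 1.55, 0.687 and 1.97 CPM in CMs of sham 1, sham 2, RVVO 1 and RVVO 2, and at 34.4, 77.6, 55.3 and 73.8 CPM in macrophages. ECs had 7.28, 3.18, 10.5 and 8.52 CPM. The lowest EC library lay above the highest CM library, and macrophages lay above both (log2 fold change against CMs 4.89, SE 0.317, edgeR adjusted p = 2.7e-12 in macrophages; 1.96, SE 0.316, adjusted p = 6.2e-06 in ECs). Fibroblasts (2.29, 4.88, 2.17 and 2.75 CPM) and mural nuclei (3.39, 2.29, 1.93 and 6.01 CPM) did not pass the test for Mki67 (edgeR adjusted p = 0.204 and 0.248).

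Top2a was at 1.75, 1.03, 1.58 and 2.57 CPM in CMs and 71.6, 168, 90.7 and 130 CPM in macrophages. It was at 10.03, 2.79, 13.3 and 9.86 CPM in ECs, where sham 2 was the low library. Fibroblasts had 1.53, 8.49, 4.10 and 2.75 CPM and mural nuclei 6.21, 1.83, 3.87 and 4.30 CPM, and both overlapped the CM values. Without sham 2 the fibroblast value turned to -0.06. The log2 fold change was 5.43 (SE 0.362, edgeR adjusted p = 4.5e-12) in macrophages and 1.83 (SE 0.379, adjusted p = 1.5e-04) in ECs, a call lost when each nucleus was named on its own (1.10, edgeR adjusted p = 0.0638). Bub1, a kinase of the spindle checkpoint, had 3, 0, 3 and 6 UMIs in CMs and 2, 28, 10 and 14 in macrophages, a log2 fold change of 5.82 (SE 0.628, edgeR adjusted p = 2.1e-08). Casc5, the older symbol of Knl1, was at 0.403, 0.801, 1.21 and 1.77 CPM in CMs and at 38.7, 85.7, 65.2 and 50.2 CPM in macrophages.

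Cenpf was the exception among kinetochore genes. CMs had 10.9, 6.07, 11.996 and 15.3 CPM, macrophages 30.1, 36.7, 26.9 and 45.7 CPM, and the change in macrophages was the smallest of the mitotic members called (1.11, SE 0.211, edgeR adjusted p = 7.1e-05). It fell against CMs in ECs (-0.47, SE 0.169, adjusted p = 0.015), fibroblasts (-0.98, SE 0.197, adjusted p = 1.1e-04) and mural nuclei (-0.86, SE 0.251, adjusted p = 0.0042). The EC call was lost without RVVO 1 or RVVO 2 (adjusted p = 0.0576 and 0.0596). Smc4 was at 18.1 to 20.4 CPM in CMs and 86.7 to 98.3 CPM in fibroblasts, where it had the third largest rise (1.60, SE 0.0866, edgeR adjusted p = 7.9e-14). Cenpe, a kinetochore motor, rose by 1.84 in mural nuclei (SE 0.625, edgeR adjusted p = 0.012), a call lost without RVVO 1 (1.16, adjusted p = 0.127).

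Among kinases, cyclins and partners, Aurkb, the catalytic subunit of the chromosomal passenger complex, had 2, 3, 1 and 5 UMIs in CMs (0.134, 0.172, 0.0404 and 0.201 CPM). In macrophages it was at 18.6, 17.4, 5.67 and 9.13 CPM, a log2 fold change of 5.68 (SE 0.473, edgeR adjusted p = 2.5e-10). ECs had 0.441, 0.381, 0.762 and 0.668 CPM, above every CM library, with a log2 fold change of 1.36 (SE 0.584, adjusted p = 0.038). That call was lost without RVVO 1 (0.86, edgeR adjusted p = 0.253) or RVVO 2 (1.56, adjusted p = 0.0647). Fibroblasts (0, 1.06, 0.241 and 0.393 CPM) and mural nuclei (0, 0.457, 0 and 0.859 CPM) rested on at most 5 UMIs a library. Birc5, a partner of Aurkb, rose by 1.41 in fibroblasts (SE 0.406, edgeR adjusted p = 0.0036). Ccnb2, a B-type cyclin, did not follow: CMs had 2.35, 4.29, 4.81 and 3.66 CPM and macrophages 7.16, 7.14, 7.09 and 10.7 CPM, with a log2 fold change of 0.49 that did not pass (edgeR adjusted p = 0.210). It fell in ECs (-1.22, SE 0.252, adjusted p = 1.4e-04) and in mural nuclei (-0.81, SE 0.356, adjusted p = 0.048), where leaving out sham 1, sham 2 or RVVO 1 ended the call (edgeR adjusted p = 0.106, 0.0909 and 0.201). Of the 4 members not tested, Ccnb1 had 1, 1, 3 and 7 UMIs in CMs and 1, 7, 5 and 5 in macrophages, and Ube2c, which helps destroy cyclins, had none in mural nuclei.

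Among spindle members, Kif4, a motor that binds chromosomes and the spindle midzone, was at 0.269, 0.286, 0.565 and 0.844 CPM in CMs. It was at 14.3, 38.8, 36.9 and 22.1 CPM in macrophages (5.09, SE 0.352, edgeR adjusted p = 8.9e-12), at 3.30 to 7.32 CPM in ECs (2.69, SE 0.332, adjusted p = 1.3e-07) and at 5.65, 6.40, 6.45 and 6.87 CPM in mural nuclei. Among members, Kif4 had the largest rise in mural nuclei (3.02, SE 0.433, adjusted p = 1.7e-06), on 8 to 14 UMIs a library. Tpx2, which activates Aurora A at the spindle, rose by 1.89 in mural nuclei (SE 0.681, adjusted p = 0.017) but not without sham 1 (edgeR adjusted p = 0.0912). Kif11, the motor that pushes the spindle poles apart, fell there (-1.64, SE 0.590, adjusted p = 0.018), with 4, 4, 0 and 2 UMIs, and missed without RVVO 1 or RVVO 2 (edgeR adjusted p = 0.0600 and 0.0541).

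Among cytokinesis members, Kif23, the motor of the centralspindlin complex, had the largest change of all. It was at 0.201, 0.401, 0.444 and 0.964 CPM in CMs, 45.9, 127, 65.2 and 66.2 CPM in macrophages, and 10.4, 12.3, 9.45 and 10.5 CPM in ECs. The 3 ranges did not touch (6.44, SE 0.268, edgeR adjusted p = 7.5e-16 in macrophages; 3.77, SE 0.270, adjusted p = 1.2e-11 in ECs). Ect2, the exchange factor that starts the contractile ring, was at 1.14, 2.004, 2.10 and 1.93 CPM in CMs and 4.30, 54.1, 31.2 and 30.4 CPM in macrophages (3.43, SE 0.343, adjusted p = 6.0e-09). Sham 1 macrophages had 3 Ect2 UMIs and stood far below the other 3 libraries. Ect2 was at 3.75, 2.29, 4.27 and 4.34 CPM in ECs, 1.53, 2.97, 3.13 and 1.18 in fibroblasts and 1.69, 0.457, 0.645 and 0.859 in mural nuclei, and none of these 3 passed (edgeR adjusted p = 0.147, 0.438 and 0.0633). Ect2 passed in ECs without sham 2 (0.77, edgeR adjusted p = 0.0437) and, as a fall, in mural nuclei without sham 1 (-2.26, adjusted p = 0.0100). Cit, a citron kinase of the midbody, rose by 2.74 in ECs (SE 0.215, adjusted p = 5.9e-11). Diaph3, a formin that builds actin filaments, rose by 1.66 in fibroblasts (SE 0.334, adjusted p = 1.1e-04).

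**Figure D4:**
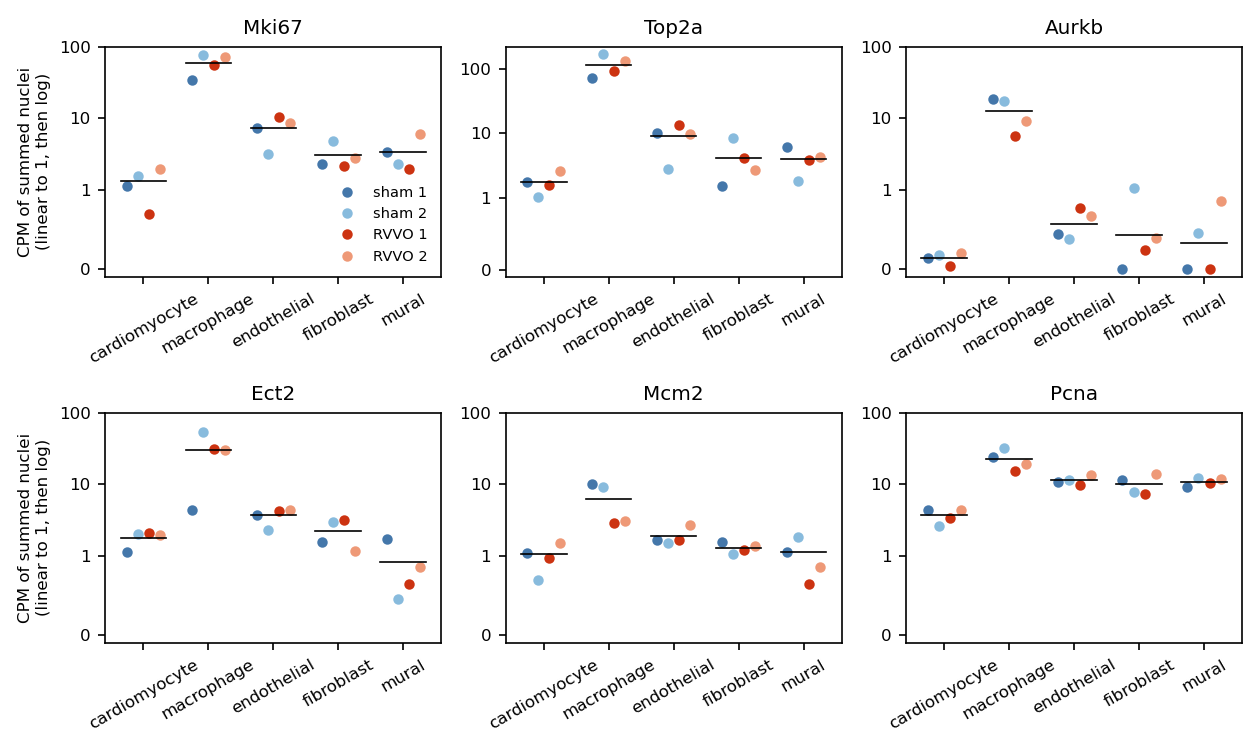
CPM of Mki67, Top2a, Aurkb, Ect2, Mcm2 and Pcna per library in 5 lineages, on an axis that is linear up to 1 CPM and logarithmic above; points are single libraries, each of the 4 in its own colour, and bars are means of 4. Macrophage Mki67 runs from 34.4 to 77.6 CPM and CM Mki67 from 0.687 to 1.97 CPM, whereas the Mcm2 values of ECs, fibroblasts and mural nuclei lie among or close to those of CMs.

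The S-phase members had a lower median than the mitotic ones in macrophages (2.37 against 4.12) and ECs (1.13 against 1.51). They did not in fibroblasts (0.80 against 0.72) or mural nuclei (0.98 against 0.36). In fibroblasts 10 of 13 S-phase and 6 of 28 mitotic members were called higher, beside 37.3% of all tested genes. In mural nuclei 8 of 13 and 5 of 28 were, beside 34.7%. The mitotic counts thus lay below the share of all genes in both lineages. Mcm2 was at 1.07, 0.687, 0.969 and 1.49 CPM in CMs and 10.03, 9.19, 2.84 and 3.04 CPM in macrophages (1.83, SE 0.410, edgeR adjusted p = 4.1e-04), where it rested on 7, 9, 2 and 4 UMIs. ECs had 1.65, 1.52, 1.68 and 2.67 CPM, fibroblasts 1.53, 1.06, 1.205 and 1.37, and mural nuclei 1.13, 1.83, 0.645 and 0.859, and none of these passed (adjusted p = 0.422, 0.381 and 0.550). Mcm3, of the same helicase, rose by 1.43 in fibroblasts (SE 0.313, adjusted p = 3.0e-04). Pcna was the S-phase gene of the 6 that passed in every lineage: CMs had 4.43, 2.58, 3.39 and 4.42 CPM and macrophages 24.4, 32.7, 15.6 and 19.0 CPM (1.98, SE 0.234, edgeR adjusted p = 8.8e-08). ECs had 10.9, 11.4, 9.91 and 13.4 CPM (1.10, SE 0.171, adjusted p = 4.0e-06), fibroblasts 11.5, 7.85, 7.23 and 13.7 CPM (0.80, SE 0.190, adjusted p = 6.8e-04) and mural nuclei 9.03, 12.3, 10.3 and 12.03 CPM (1.02, SE 0.235, adjusted p = 5.6e-04). No library of these 4 lineages reached down to the CM range. With sums over thinned nuclei Pcna had 0.44 in fibroblasts and 0.63 in mural nuclei and passed in neither.

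Atad2, a chromatin protein induced by E2F, rose in each of the 4 lineages and was at 6.55 to 8.36 CPM in CMs. It was at 57.2 to 78.5 CPM in ECs (2.61, SE 0.144, edgeR adjusted p = 1.0e-13), 54.9 to 73.6 CPM in fibroblasts (2.44, SE 0.149, adjusted p = 7.1e-13) and 33.5 to 54.2 CPM in mural nuclei (2.02, SE 0.174, adjusted p = 4.7e-10). Rrm2, a subunit of ribonucleotide reductase, rose by 1.52 in mural nuclei (SE 0.611, adjusted p = 0.031), on 1 to 3 UMIs a library, and missed without sham 1 or sham 2 (edgeR adjusted p = 0.0736 and 0.126). Ezh2 and Pola1 changed least among those called in fibroblasts (0.31, SE 0.109, adjusted p = 0.015; 0.53, SE 0.111, adjusted p = 1.7e-04). The Ezh2 call was lost without sham 1 or sham 2 (edgeR adjusted p = 0.0886 and 0.0690). Hells, a chromatin remodeler, was at 8.86, 9.22, 8.12 and 5.42 CPM in CMs. It rose by 1.56 in macrophages (SE 0.222, adjusted p = 1.6e-06) and fell in ECs (-0.54, SE 0.189, adjusted p = 0.013) and mural nuclei (-0.79, SE 0.280, adjusted p = 0.015). The EC call was lost without sham 1 (edgeR adjusted p = 0.0950), and the mural one without sham 1 or RVVO 1 (adjusted p = 0.0579 and 0.0616).

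Other genes of the cycle, 66 from a list kept apart from the members, gave 57 that could be tested in the same fit. In macrophages 43 rose and 3 fell, in ECs 33 and 10, in fibroblasts 24 and 11, and in mural nuclei 13 and 11. The shares higher were 75.4%, 57.9%, 42.1% and 22.8%, against 32.5%, 39.6%, 37.3% and 34.7% of all genes, so the share in fibroblasts lay near that of all genes and the share in mural nuclei below it. The largest changes in macrophages were those of Dlgap5 (6.62, SE 0.462), Ttk (6.21, SE 0.440) and Ndc80 (5.97, SE 0.462), all of the spindle or kinetochore, with edgeR adjusted p = 1.0e-11, 1.4e-11 and 6.7e-11. In ECs they were Ndc80 (3.29, SE 0.460), Ttk (2.86, SE 0.475) and the chromatin assembly gene Chaf1b (2.83, SE 0.613). In fibroblasts the largest changes were falls, of the centromeric histone gene Cenpa (-2.92, SE 0.214), the uracil glycosylase gene Ung (-2.91, SE 0.217) and Uhrf1 (-2.87, SE 0.671), which maintains DNA methylation. In mural nuclei Ung (-2.66, SE 0.279) and Gas2l3 (-2.64, SE 0.731) fell and the exonuclease gene Exo1 rose (2.59, SE 0.665), the last of these not without sham 2 (edgeR adjusted p = 0.0592). Ung and Cenpa fell against CMs in all 4 lineages, including macrophages (-2.20, SE 0.311, and -0.75, SE 0.224).

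The study asks whether volume overload brings CMs back into the cycle, on which these libraries bear only at P21 and only through transcripts. Its bulk RNA-seq and its staining of dividing CMs, in which it reports more positive CMs, came from an earlier age. The study calls the effect temporary. At P21 it reports a greater percentage of CMs and a lower CM maturation score after RVVO. From these measures it proposes that RVVO induces CM proliferation. The values below are therefore not a repeat of its staining or of these measures. The mitotic share of CMs was 0.362% ± 0.146 in sham and 0.434% ± 0.0548 in RVVO (SD, n = 2 each), a difference of 0.0718 percentage points whose libraries overlapped (exact permutation p = 0.667, with 0.333 the smallest p that 2 against 2 allow). The S-phase share of CMs differed by 0.0389 percentage points and also overlapped (exact permutation p = 1). Neither kept its direction when 1 library was left out: the mitotic difference was -0.0315 without sham 1, and the S-phase one -0.0738 without sham 2 and -0.0110 without RVVO 2. Most CM nuclei of sham 1, sham 2 and RVVO 2 lay in a cluster led by Ppargc1a and Cacna1c (1659, 1622 and 2287 thinned nuclei), whereas 1903 of RVVO 1 lay in a cluster led by D830032E09Rik and Mhrt.

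In the other lineages the groups separated in places. ECs were higher after RVVO on the mitotic list (2.95% ± 0.302 against 2.20% ± 0.332, a difference of 0.749 percentage points) and did not overlap. The EC nuclei of the groups were spread differently over the EC clusters. The Vwf cluster, with its high mitotic share, made up 8.26% and 7.52% of ECs in sham 1 and sham 2 but 17.4% and 24.98% in RVVO 1 and RVVO 2. A cluster led by Gm12002, Ablim3 and Rsad2 (c7), of mitotic share 1.56%, made up 38.0% and 17.96% in sham and 5.58% and 7.98% in RVVO. Mki67 was at 5.69 CPM in c7 and 8.13 in the Vwf cluster, and Top2a at 7.68 and 12.5. Smc4, which also works in interphase, was at 67.0 and 187 CPM. Shares of single clusters without Smc4 are not given here. The Reln cluster held 2.54%, 2.56%, 5.03% and 3.21% in the same order. Within the clusters c14, c17, c18, c7 and c8 the mitotic shares of sham and RVVO libraries overlapped (in the Vwf cluster 7.69% and 5.67% in sham, 5.77% and 6.43% in RVVO). Within the Reln cluster they did not overlap (4.76% and 9.52% against 11.1% and 13.2%). Those shares rest on 84 and 84 nuclei in sham and 90 and 68 in RVVO, with 31 positive nuclei over all libraries. Whether the spread over clusters accounts for the EC difference was not tested. With 2 libraries a group, overlap or its absence within a cluster cannot decide it. Fibroblasts were lower (1.44% ± 0.104 against 1.87% ± 0.0287) and mural nuclei higher (1.74% ± 0.226 against 1.45% ± 0.132), both without overlap. The exact permutation p was 0.333 for each of these 3. Macrophages were 4.79 percentage points lower after RVVO with overlap (exact permutation p = 0.667), and without sham 2 the difference was 0.0458 percentage points in the other direction. On the S-phase list the differences were -5.31 in macrophages, -0.192 in ECs, -0.775 in fibroblasts and -0.112 in mural nuclei, of which that of fibroblasts came without overlap. Without sham 2 the differences of macrophages, ECs and mural nuclei turned to 0.284, 0.426 and 0.205, and that of ECs also turned without RVVO 1 (0.174) and that of mural nuclei without RVVO 2 (0.280). At 2000 UMIs a nucleus the mitotic difference was 0.0235 in fibroblasts and -0.784 in mural nuclei, opposite to that at 1000.

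No member passed the test for RVVO against sham in any lineage (edgeR, one fit per lineage, adjusted over all genes tested). The tested members numbered 33 in CMs, 33 in macrophages, 39 in ECs, 25 in fibroblasts and 12 in mural nuclei, and 0 were called in each by edgeR and by DESeq2. Aurkb passed the low-count filter of this edgeR test only in macrophages, so it was not among the members tested in CMs. That filter keeps a gene that is high enough in either group alone. A member could thus enter through the group where it was high, which favoured its direction in advance. At an unadjusted p under 0.05 edgeR gave 1, 2, 3, 1 and 1 members, where all genes gave 5.27%, 6.73%, 10%, 4.09% and 4.57% in the same order. Over all genes the called share was 0.0477%, 0.0982%, 0.251%, 0.0921% and 0.0743% in the same order. The median log2 fold change of the members was 0.09 in CMs, -0.19 in macrophages, 0.23 in ECs, -0.21 in fibroblasts and -0.01 in mural nuclei, against 0.00, -0.02, 0.00, 0.00 and -0.01 over all genes. Counts were simulated from gene means of these libraries with a fixed spread, leaving out genes of few UMIs. The CM test then recovered 21% of genes changed by 1 on the log2 scale and 94% of those changed by 2. A change of 1 in a member could therefore have been missed. The spread was set and not estimated from these libraries, so the rates need not hold for the members. A change of 2 could have been missed too, also in members of few UMIs, which the rates do not cover.

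In CMs the lowest p belonged to Brip1, a helicase of DNA repair, at 15.4 CPM in sham 1 and 4.06, 3.31 and 2.97 CPM in sham 2, RVVO 1 and RVVO 2. Sham 1 alone was high, and the log2 fold change was -1.69 (SE 0.613, unadjusted p = 0.035, edgeR adjusted p = 0.925). Diaph3 (1.41, 2.18, 2.87 and 3.94 CPM) and Cenpf (10.9, 6.07, 11.996 and 15.3 CPM) were higher in both RVVO libraries than in both sham libraries, with log2 fold changes of 0.84 (SE 0.344) and 0.62 (SE 0.313). Kif4 had 1.25 (SE 0.513) and Kif20b, a cytokinesis motor, 0.89 (SE 0.413). Their adjusted p ran from 0.925 to 0.937 (edgeR). Kif4 passed the low-count filter only through the RVVO libraries, so its positive value was favoured in advance.

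In macrophages the 8 S-phase members tested all had negative values, with a median of -0.58, and none was called. Aurkb was at 18.6 and 17.4 CPM in sham and 5.67 and 9.13 CPM in RVVO, without overlap (-1.22, SE 0.471, unadjusted p = 0.030, edgeR adjusted p = 0.688). It passed the low-count filter only through the sham libraries, so its direction and lack of overlap were favoured in advance. Smc2, the other condensin ATPase, was at 34.4 and 48.0 CPM in sham and 26.9 and 22.1 in RVVO (-0.81, SE 0.326, edgeR adjusted p = 0.709). Hells (-1.07, SE 0.475), Pcna (-0.73, SE 0.352) and Brip1 (-0.60, SE 0.346) followed, with adjusted p of 0.743 to 0.811.

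In ECs the 27 mitotic members tested had a median of 0.42, and 24 of them had positive values, none called. Cit was at 17.1 and 25.5 CPM in sham and 30.8 and 46.1 CPM in RVVO (0.77, SE 0.251, unadjusted p = 0.019, edgeR adjusted p = 0.349). Birc5 was at 1.21 and 0.508 against 2.13 and 2.67 CPM (1.35, SE 0.524, adjusted p = 0.457). Birc5, 1 of the 24, passed the low-count filter only through the RVVO libraries, so its positive value was favoured in advance. Atad2 had -0.38 (SE 0.140), Nusap1, which bundles spindle microtubules, 0.72 (SE 0.309), and Tpx2 1.201 (SE 0.561).

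In fibroblasts Brip1 was at 23.3 and 22.9 CPM in sham and 12.05 and 13.3 CPM in RVVO, without overlap. It had the lowest unadjusted edgeR p of any member in these 5 fits (-0.89, SE 0.208, unadjusted p = 0.0037, edgeR adjusted p = 0.636). Atad2 (-0.32, SE 0.147), Ezh2 (-0.27, SE 0.144), Birc5 (-0.83, SE 0.466) and the helicase gene Mcm4 (0.73, SE 0.448) came next. In mural nuclei Atad2 was at 54.2 and 51.2 CPM in sham and 34.2 and 33.5 CPM in RVVO (-0.66, SE 0.211, edgeR adjusted p = 0.828). The next were Pola1 (0.33, SE 0.193), Cenpf (0.71, SE 0.437), Hells (-0.69, SE 0.484) and Smc2 (-0.55, SE 0.417).

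**Figure D5:**
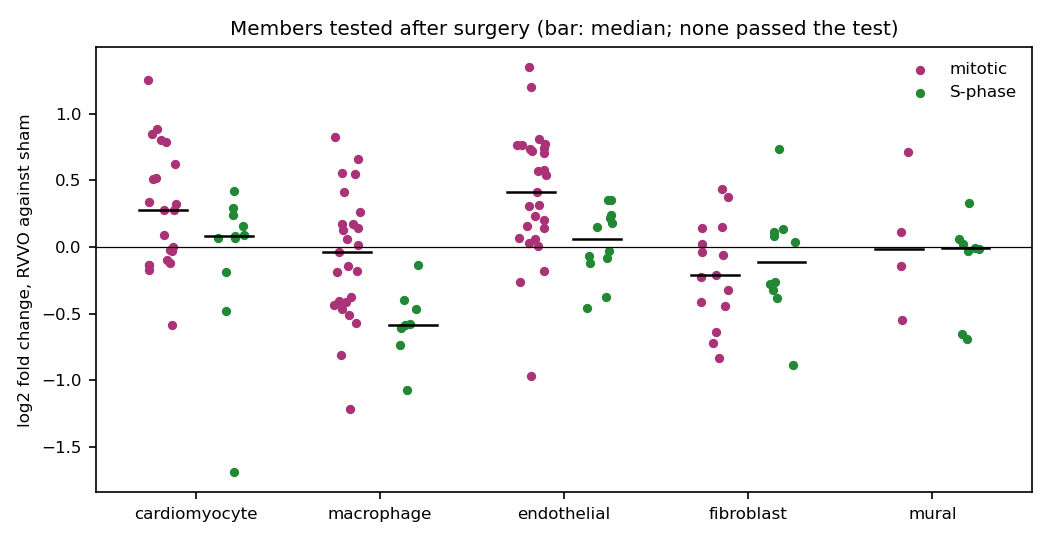
Log2 fold change of each tested member in RVVO against sham nuclei of 5 lineages (edgeR), mitotic and S-phase members apart; each point is 1 member and the bar is the median. EC mitotic members have a median of 0.42 and macrophage S-phase members one of -0.58, and no member passed the test.

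Whether the surgery effect differed between lineages was tested as an interaction against CMs (edgeR, 44 members tested in each of the 4 comparisons). It called 0 members, with 7 at an unadjusted p under 0.05 in macrophages, 4 in ECs, 0 in fibroblasts and 3 in mural nuclei, against 9.02%, 7.23%, 5.12% and 5.21% of all genes, and DESeq2 was not run for it. Over all genes the called share was 0%, 0.151%, 0.0329% and 0.0131%. The lowest p belonged to Smc2 in macrophages (-1.10, SE 0.321, unadjusted p = 0.0028, edgeR adjusted p = 0.230), and the same gene was lowest in mural nuclei (-0.93, SE 0.391, adjusted p = 0.944). Mcm2 (-2.16, SE 0.701) and Mcm5 (-2.65, SE 0.884) followed in macrophages, where both rested on few UMIs. Without sham 2 the test called Brip1 in macrophages (2.53, SE 0.334, edgeR adjusted p = 0.0070) and in ECs (1.94, SE 0.289, adjusted p = 0.0076), where sham 1, high for Brip1 in CMs, was the only sham library left. Of the 66 other genes of the cycle, 45, 43, 51, 39 and 28 could be tested for RVVO against sham in CMs, macrophages, ECs, fibroblasts and mural nuclei. Of those tested, edgeR called 0 in any of the 5 lineages. At an unadjusted p under 0.05 it gave 2, 6, 2, 1 and 2 in the same order, beside 5.27%, 6.73%, 10%, 4.09% and 4.57% of all genes.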

How the data were processed

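Nuclei were profiled on the 10x 3′ v3 assay. The deposited matrices hold whole UMI counts per gene and nucleus, made by the authors with Cell Ranger (5.0.0 per the file headers; 3.0.1, with STAR, Seurat 3.0.2, GRCm38 and mm10, in the submitters' processing notes) and not normalized. The sources used here do not say whether intron reads were counted or strand was used. Barcodes with at least 200 genes and at most 10% mitochondrial UMIs were kept. Scrublet's automatic threshold in scanpy 1.11.5 marked 0% to 0.0460% of barcodes, so the highest scores were removed instead (0.8% per 1000 barcodes, 6.97% to 12.5% of a library). Nuclei were clustered (2000 variable genes, 30 components, 15 neighbours, Leiden resolution 1) and named by markers. The naming thresholds, and the step that left 3 clusters unnamed because their leading genes went against the name, were set after the clusters were seen, and the form of the score per nucleus was replaced after an earlier form gave implausible shares. Members and lists were chosen with earlier results of these data known.

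Each library was 1 replicate. UMI sums per library and lineage were tested with edgeR 4.0.16 (R 4.3.3; quasi-likelihood, TMM, filterByExpr, Benjamini-Hochberg, threshold 0.05), with library as a term between lineages. DESeq2 1.42.0 was an alternative, and shares were compared by exact permutation tests (scipy 1.17.1). On simulated counts for macrophages against CMs (12301 genes), edgeR recovered 52% of genes changed by 1 and 94% of those changed by 2 on the log2 scale, with 0.680% false calls. For RVVO against sham it recovered 21% and 94% in CMs (13169 genes) and 20% and 95% in macrophages (6975 genes), with 6.50% and 4.17% false calls. The simulations left out genes of few UMIs, so these rates do not cover members of few UMIs. They also used a fixed spread that was not estimated from these libraries, so the rates need not hold for the other members. Named genes were Mki67, Top2a, Aurkb, Ect2, Mcm2 and Pcna in every library, up to 5 called members with the largest and 5 with the smallest fold change per lineage, and the 5 with the lowest p for surgery. Of the 66 other cell cycle genes, the 3 with the largest change per lineage were named.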

Additional observations from a re-analysis of the deposited data

Results flagged for a closer look

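Of 80 comparisons searched (2 shares and 6 genes over 10 pairs of lineages), in 5 the libraries of each of 2 lineages separated between RVVO and sham in opposite directions, and none of these differences was tested as such. On the mitotic list, the difference of RVVO from sham was 0.749 percentage points in ECs and -0.428 in fibroblasts, 1.18 percentage points apart, and it was 0.289 in mural nuclei, so that fibroblasts lay -0.717 percentage points from mural nuclei. Aurkb differed by -10.6 CPM in macrophages and by 0.304 CPM in ECs, a gap of -10.9 CPM, although the EC libraries held 3 to 5 UMIs of the gene. Mcm2 differed by -6.67 CPM in macrophages and 0.586 CPM in ECs (a gap of -7.25 CPM). In mural nuclei Mcm2 differed by -0.727 CPM, 1.31 CPM below the EC difference, on 1 to 4 UMIs a library. The interaction test against CMs called none of these genes in any lineage. Sex cannot be told apart from surgery in all 5. Over all genes with a UMI in every sum, 3.04% to 4.57% separated in opposite directions in a given pair of lineages, 4.55% for macrophages and ECs and 4.05% for ECs and mural nuclei.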

How the results depend on the processing

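With 2 libraries a group and nuclei of few UMIs, the data limit what can be told: no exact test of 2 against 2 can go below p = 0.333, macrophages supply 210 to 477 thinned nuclei a library, and several members rest on single UMIs. Of the shares and counts under each alternative, 441 kept their direction and size class, 28 turned direction and 20 counts moved by more than 1.5 times. The 441 include the counts of members called for RVVO against sham, which were 0 and stayed 0, and most counts of the interaction. A count of 0 that stays 0 says little about how firm a result is. Of the values of single genes, 451 kept direction and side of the threshold, 38 turned direction, 9 passed the threshold only under the alternative and 7 passed it only in the fit reported. For each of these the cause was not tested. The mitotic and S-phase differences of macrophages and fibroblasts from CMs kept their direction under every alternative run.

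Differences of RVVO from sham in the mitotic share, in percentage points, turned direction as follows. Fibroblasts had 1.12 with at least 1 UMI, 0.0235 at 2000 UMIs and 3.91 without thinning. CMs had -0.00652 with UMIs of at least 2 different genes and -0.0354 where each nucleus was named on its own. Mural nuclei had -0.784 at 2000 UMIs, and macrophages 3.29 without thinning. In the S-phase share, fibroblasts had 0.168 with 2 different genes and 4.53 without thinning, CMs -0.440 at 2000 UMIs and -0.0741 without Pola1 and Ezh2, ECs 0.346 at 2000 UMIs and 5.40 without thinning, macrophages 3.11 and mural nuclei 3.97 without thinning, and mural nuclei 0.140 with doublets kept. Without thinning, the difference from CMs was -0.537 for the mitotic share of mural nuclei, -0.975 for the S-phase share of ECs and -5.42 for that of mural nuclei.

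Of members against CMs, the count lower in ECs was 1 with DESeq2, 1 with library size only, 1 with each nucleus named on its own, 1 with no library term and 0 with sums over thinned nuclei. In fibroblasts 29 were higher and 0 lower with library size only, which moved the median of all genes by 0.60 in macrophages, 0.56 in ECs, 0.66 in fibroblasts and 0.58 in mural nuclei. Fibroblasts had 3 lower with no filter and 0 where nuclei were named singly. Mural nuclei had 0 lower with library size only and 0 where nuclei were named singly. With sums over thinned nuclei, macrophages had 23 higher, ECs 15, fibroblasts 8, and mural nuclei 6 higher and 1 lower, of 24 tested. Single values against CMs that turned direction were, with library size only, those of Ect2 (0.258) and Mcm2 (0.249) in fibroblasts and Mcm2 in mural nuclei (0.182), with thinned sums Mki67 in fibroblasts (-0.359), and, where nuclei were named singly, Ect2 in fibroblasts (0.0805) and Mcm2 in mural nuclei (0.112). None of the 6 passed the test in the fit reported.

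For RVVO against sham, log2 fold changes that turned direction with each nucleus named on its own were Mki67 (0.447) and Pcna (-0.0702) in CMs, Mki67 in macrophages (-0.491), Mki67 (0.202), Top2a (0.491) and Ect2 (0.226) in fibroblasts and Pcna in mural nuclei (-0.164). In macrophages Ect2 turned to 0.0748 with DESeq2 and 0.164 with the replicate block, and Mki67 to -0.108 with thinned sums. Pcna in ECs turned to 0.0565 with library size only. None passed. The labels do not state that the replicate numbers pair the libraries. The correlation of same-numbered deviations over all tested genes was -0.0388 to 0.0662 in the 5 lineages, and such a value cannot exclude a pairing. The fit with the replicate block also called 0 members in each lineage.

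With 1 library left out at a time, the mitotic difference of RVVO from sham ran from -0.0315 to 0.175 in CMs and from -9.63 to 0.0458 in macrophages, and the S-phase one from -0.0738 to 0.152 in CMs, from -10.9 to 0.284 in macrophages, from -0.810 to 0.426 in ECs and from -0.504 to 0.280 in mural nuclei. The counts lower than CMs ran from 1 to 3 in fibroblasts and from 1 to 3 in mural nuclei, and the counts of higher interactions from 0 to 1 in macrophages and from 0 to 1 in ECs. Top2a in fibroblasts against CMs ran from -0.0622 to 1.2008. For RVVO against sham in CMs, Ect2 ran from -0.0553 to 0.740, Mki67 from -1.01 to 0.467 and Pcna from -0.261 to 0.534. In macrophages Ect2 ran from -0.797 to 2.74, Mki67 from -0.229 to 0.863 and Top2a from -0.571 to 0.579. In ECs Pcna ran from -0.238 to 0.152. In fibroblasts Ect2 ran from -1.05 to 0.399, Mki67 from -0.976 to 0.0475, Pcna from -0.378 to 0.490 and Top2a from -1.32 to 1.08. In mural nuclei Pcna ran from -0.156 to 0.266. A group left with 1 library was assumed to vary like the other.

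Leaving out Smc4, or Pola1 and Ezh2, keeping the 3 clusters led by other genes and counting Knl1 from Casc5 were chosen after seeing the data.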

Other observations

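Outside the 5 lineages, nuclei named as T or NK cells were mitotic-positive in 24 of 119 (20.2%) and S-phase-positive in 12 of 119 (10.1%), with 1 of 16, 8 of 18, 2 of 24 and 13 of 61 on the mitotic list in sham 1, sham 2, RVVO 1 and RVVO 2. Epicardial nuclei were mitotic-positive in 48 of 1128 (4.26%) and S-phase-positive in 43 of 1128 (3.81%). Their mitotic share was 4.21%, 4.28%, 2.44% and 4.68% in the same order of libraries. Glial nuclei held 3 of 82, 5 of 89, 0 of 40 and 4 of 56 mitotic-positive nuclei. Nuclei left unnamed had a median of 1195, 827, 7248.5 and 4536 UMIs in the same order, of which 900, 1391, 41 and 0 were too shallow to be thinned, and the others were mitotic-positive in 2.94%, 3.604%, 3.87% and 5.58%.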
